A study of Mus musculus with 20 samples.

Results

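Cd8a, Cd8b1 and Ighm are the mouse genes for the CD8 alpha chain, the CD8 beta chain and the constant region of the immunoglobulin M heavy chain. They were taken by name from the mouse genes that the deposited counts could be assigned to: all 3 were measured, among 4217 mouse genes with counts, and all 3 were among the 2200 genes tested. The counts come from liver RNA of 20 individual mice in 4 groups of 5. Mice 11 to 15 were given anti-CD40 and antibiotics (ABX), mice 16 to 20 anti-CD40 without antibiotics, control mice 1 to 5 antibiotics alone, and control mice 6 to 10 neither. CD40 is a receptor on antigen-presenting cells and B cells. Not given in the sources used here are the strain, age and sex of the mice, the antibody clone, whether it activates or blocks CD40, its dose and timing, the treatment of controls and the antibiotics used. A gene was assigned by position: the authors' counting intervals were read as mm10 coordinates, and counts of intervals that overlapped the exons of exactly 1 mouse gene by at least 50 bp were summed for that gene. The 20 libraries held 5053014 to 7618736 counts, with a median of 6199078, and Alb, the albumin gene of hepatocytes, took 5.91% to 20.2% of them.

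The CD8 alpha and beta chains pair on the surface of cytotoxic T cells, where they bind major histocompatibility complex (MHC) class I molecules beside the T cell receptor and bring the kinase Lck to it. Pairs of 2 alpha chains are found on some dendritic cells and on T cells of the gut epithelium, so Cd8b1 marks conventional CD8 T cells more narrowly than Cd8a does. Immunoglobulin M is the first antibody class that a B cell makes. It sits in the membrane as part of the B cell receptor, and plasma cells secrete it. RNA was taken from whole liver pieces, so fewer cells of a type and less RNA per cell cannot be told apart in any value below.

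Each gene was read through a small part of its length, and the stretches below show coding sequence inside counted intervals. For Cd8a that sequence lies in a counted interval that the assignment left out, and the assigned Cd8a counts stand for no coding sequence. The Cd8a interval assigned to the gene covered 72 of 3637 exon bases (1.98%) at chr6:71376960-71377031, all in the 3′ untranslated region of exon 5. A second, larger counted interval, chr6:71373253-71375387, covered exons 1 to 3 and 1292 annotated Cd8a exon bases but also touched 32 bases of the noncoding gene Gm44174. The assignment left it out, and it is given separately here as the exon 1 to 3 interval of Cd8a. For Cd8b1 the assigned exon bases were the whole of coding exon 3, 96 of 1483 exon bases (6.47%). They lay in a feature of 2 intervals and 352 bp whose other bases are intronic, so fragments of unspliced RNA could enter the count. For Ighm, on the minus strand of chromosome 12, the counted exon bases were exon 1 and the first 68 bases of exon 2. Together these were 383 of 1886 exon bases (20.3%), and exon 1 encodes the first constant domain. The Ighm feature held 9 intervals and 2216 bp, and its other 8 intervals lay upstream of the constant region over no annotated exon, so fragments of unspliced heavy-chain RNA could enter the count. Exons 1 and 2 are common to the secreted and the membrane transcript of Ighm, so the counts do not separate them. Spliced mouse sequence around the counted coding bases follows, from the GENCODE M21 transcripts on mm10, 5′ to 3′. Capitals mark bases inside the assigned intervals of Cd8b1 and Ighm and inside the exon 1 to 3 interval of Cd8a. On the Cd8b1 line, the last 19 bases of exon 2 also lay in a counted interval, chr6:71326330-71326620. Its feature met 5 genes and was not assigned, so those bases are in lower case.
Cd8b1 exon 3 (capitals, chr6:71329697-71329792, plus strand) with 30 bases of each neighbouring exon: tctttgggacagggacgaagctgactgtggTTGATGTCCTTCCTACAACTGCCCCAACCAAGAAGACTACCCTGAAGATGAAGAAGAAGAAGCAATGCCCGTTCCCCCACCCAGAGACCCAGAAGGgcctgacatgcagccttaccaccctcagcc
Cd8a exons 2 and 3, which encode the hinge and the membrane-spanning segment (capitals, spliced from chr6:71374503-71374869, plus strand), with exon 4 in lower case: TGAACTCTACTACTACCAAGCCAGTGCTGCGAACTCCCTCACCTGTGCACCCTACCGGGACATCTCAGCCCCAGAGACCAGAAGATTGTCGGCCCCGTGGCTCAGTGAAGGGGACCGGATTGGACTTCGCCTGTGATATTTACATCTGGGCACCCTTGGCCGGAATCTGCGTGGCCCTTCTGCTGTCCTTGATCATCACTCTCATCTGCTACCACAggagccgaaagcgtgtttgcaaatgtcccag
Ighm, the last 60 bases of exon 1 and the start of exon 2, spliced from chr12:113422207-113422475, minus strand: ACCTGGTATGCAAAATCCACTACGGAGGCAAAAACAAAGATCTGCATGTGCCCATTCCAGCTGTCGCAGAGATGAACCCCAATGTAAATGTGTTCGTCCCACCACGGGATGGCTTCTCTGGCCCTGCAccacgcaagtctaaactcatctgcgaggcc
The Cd8a line lies in the exon 1 to 3 interval, not the assigned one. In it the junction of exons 2 and 3 falls after base 105. Exon 4, which transcript Cd8a-202 lacks, lay in neither interval. Fragments that touch an interval by a single base are counted, so levels read through intervals this short were not set against each other between genes.

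**Figure D1:**
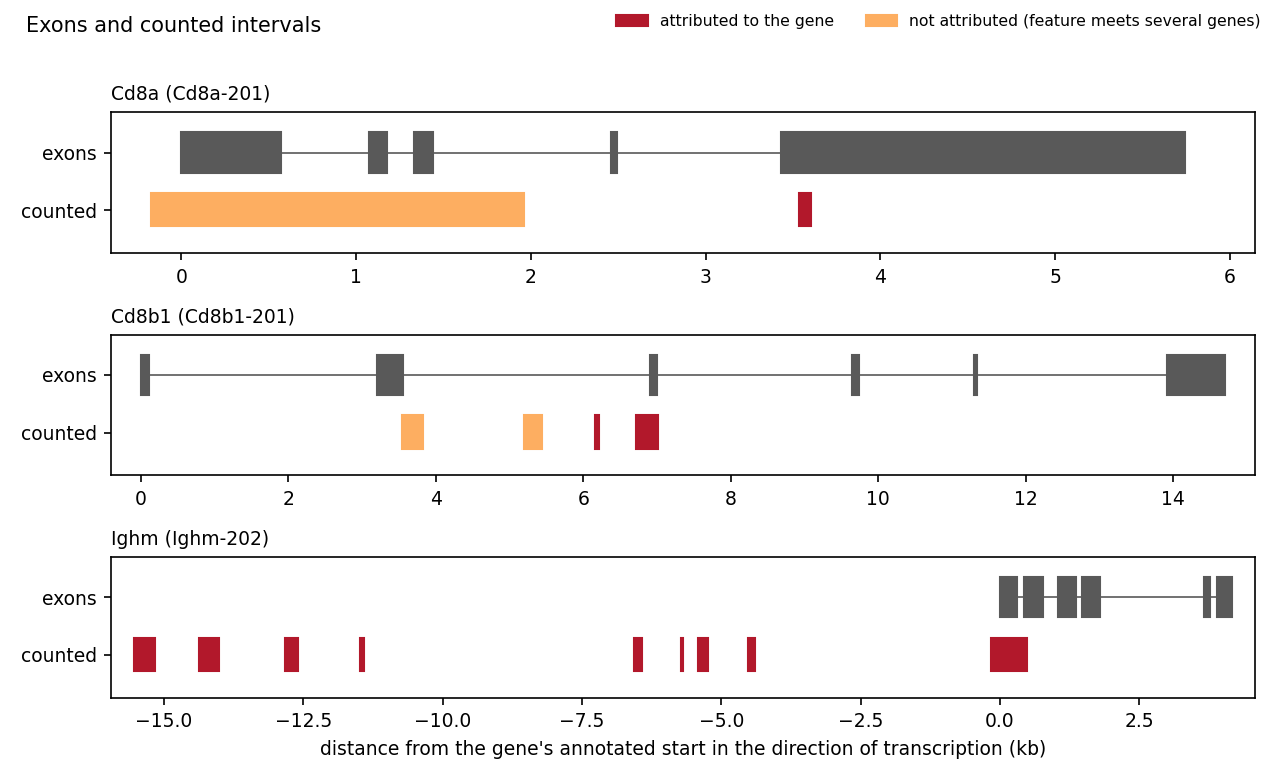
Exons of 1 transcript per gene (grey) and the counted intervals (red, assigned to the gene; orange, part of a feature that meets several genes), by distance in kb from the annotated gene start in the direction of transcription. Cd8a was assigned 72 exon bases in exon 5, Cd8b1 96 in exon 3 and Ighm 383 in exons 1 and 2, and the other 8 Ighm intervals lie before the gene start.

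The RNA of both CD8 chains rose in anti-CD40 livers, with and without antibiotics, while Ighm rose in the mice given antibiotics and did not pass the test in those without. Adjusted p-values are from edgeR's quasi-likelihood test over all 2200 genes with Benjamini-Hochberg adjustment, and a change was called at an adjusted p under 0.05. With antibiotics, 51.5% of all tested genes were called in the anti-CD40 comparison (26.6% higher, 24.9% lower), and without antibiotics 60.6% (31.8% higher, 28.8% lower). Calls were thus common. Anti-CD40 mice 14, 15, 19 and 20 stood apart in Pecam1, an endothelial gene, at 7.70, 7.41, 15.3 and 15.4 CPM against 35.2 to 76.9 CPM in the other 16 mice. Without these 4 mice, an alternative added after the data were seen, the log2 fold change of Cd8a was 4.95 with ABX and 2.84 without, of Cd8b1 2.95 and 2.91, and of Ighm 0.74 (edgeR adjusted p = 0.00164) and 0.21 (adjusted p = 0.330), with the same calls. Cd8a and Cd8b1 also passed the filter on low counts through anti-CD40 libraries alone: 8 anti-CD40 libraries reached the minimum of 1.61 CPM (counts per 1000000 counts of the library) for Cd8a and 9 for Cd8b1, against no control library for either, so a gene could enter in this way only by being higher after anti-CD40.

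Cd8a had 11, 15, 25, 14 and 12 counts in mice 11 to 15 given anti-CD40 and ABX, against 1, 0, 1, 0 and 0 counts in control mice 1 to 5 with ABX. It had 14, 31, 13, 10 and 7 counts in mice 16 to 20 given anti-CD40 without ABX, against 1, 2, 0, 5 and 4 counts in control mice 6 to 10 without ABX. Every anti-CD40 mouse lay above every control mouse at the same antibiotic status, which in CPM held for 19.3% of all tested genes with ABX and for 21.4% without. After normalization by the trimmed mean of M values (TMM), the level of Cd8a was 2.49 ± 0.843 CPM in anti-CD40 mice and 0.0693 ± 0.0953 CPM in control mice with ABX, and 2.21 ± 1.09 CPM in anti-CD40 mice and 0.376 ± 0.325 CPM in control mice without (SD, n = 5 each). The fitted log2 fold change was 4.79 ± 0.69 with ABX (SE, adjusted p = 2.6e-06) and 2.52 ± 0.51 without (adjusted p = 0.000159). The first rests on 77 counts against 2, a ratio of 35.3 with a 95% counting interval of 9.45 to 297, and the second on 75 against 12, a ratio of 6.11 (3.30 to 12.4). Those intervals cover counting error only. The exact permutation test over mice, two-sided, gave p = 0.00794 in each comparison, the smallest that 5 mice against 5 allow.

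Over exons 1 to 3 of Cd8a, which the assigned interval does not touch, the counts were higher. This interval held 26, 70, 56, 75 and 56 counts in anti-CD40 mice 11 to 15 with ABX, against 1, 5, 4, 7 and 5 in control mice 1 to 5 with ABX. It held 60, 78, 39, 57 and 38 counts in anti-CD40 mice 16 to 20 without ABX, against 5, 6, 4, 6 and 6 in control mice 6 to 10 without ABX. No group of anti-CD40 mice overlapped its controls, as for 19.3% of all tested genes with ABX and 21.4% without, and no library was at 0. Summed, the counts were 283 against 22 with ABX, a ratio of 11.8 (95% counting interval 7.64 to 19.1), and 272 against 27 without, a ratio of 9.85 (6.62 to 15.2). With this interval in place of the assigned one, a reading added after the data were seen, the log2 fold change was 3.51 ± 0.32 with ABX (SE, edgeR adjusted p = 1.52e-09) and 3.26 ± 0.31 without (adjusted p = 3.05e-09). The gap between the 2 antibiotic states seen at the 72 bases, 4.79 against 2.52, was smaller here, 3.51 against 3.26.

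Cd8b1 had 7, 16, 19, 19 and 13 counts in anti-CD40 mice 11 to 15 with ABX, against 4, 0, 1, 3 and 0 in control mice 1 to 5 with ABX. It had 23, 23, 9, 11 and 11 counts in anti-CD40 mice 16 to 20 without ABX, against 2, 2, 4, 3 and 0 in control mice 6 to 10 without ABX. The groups did not overlap in either comparison, and the beta chain was thus read above its controls in all 10 anti-CD40 mice. Of all tested genes, 19.3% lay above without overlap in this way with ABX and 21.4% without. Its level was 2.38 ± 0.736 CPM in anti-CD40 mice and 0.272 ± 0.299 CPM in control mice with ABX, and 2.33 ± 0.999 CPM in anti-CD40 mice and 0.343 ± 0.244 CPM in control mice without (SD, n = 5 each). The log2 fold change was 3.0 ± 0.56 with ABX (SE, edgeR adjusted p = 7.79e-05) and 2.70 ± 0.52 without (adjusted p = 0.000102). In counts this was 74 against 8, a ratio of 8.48 (95% counting interval 4.09 to 20.4), and 77 against 11, a ratio of 6.84 (3.62 to 14.3). The exact permutation p, two-sided, was 0.00794 in each comparison. A count of 0 in a control library allows up to 3 counts, which is 0.478 to 0.484 CPM on the library total in the 3 control libraries at 0 for Cd8b1. In the 4 control libraries at 0 for Cd8a it is 0.412 to 0.482 CPM. The Cd8a mean in controls with ABX, 0.0693 CPM, lay under the level of 3 counts over that group, 0.106 CPM. The Cd8a log2 fold change of 4.79 is taken against that level.

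**Figure D2:**
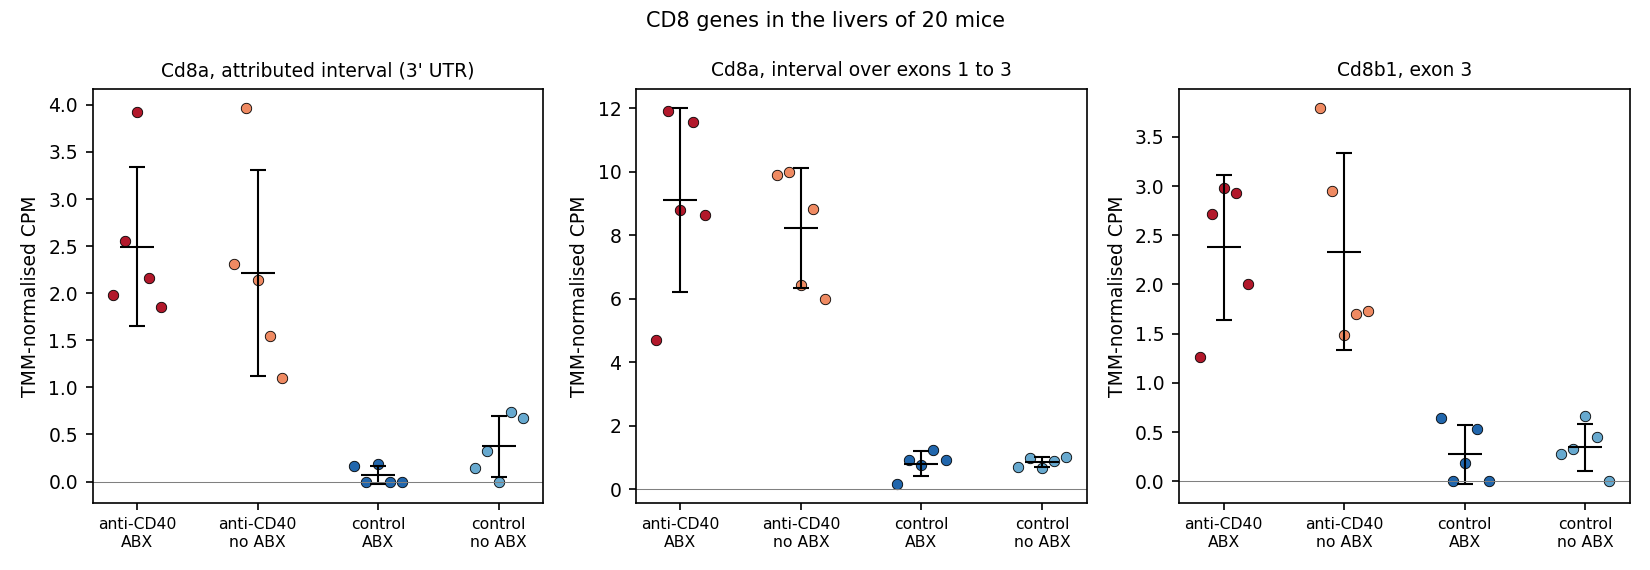
TMM-normalised CPM in each of the 20 mice by group. Panels show Cd8a over its assigned interval, Cd8a over the interval with exons 1 to 3, and Cd8b1 over its feature with exon 3. Bars give the mean ± SD (n = 5 per group). In all 3 panels the 5 anti-CD40 mice lie above the 5 control mice of the same antibiotic status; the exon 1 to 3 interval averaged 9.12 ± 2.90 and 8.22 ± 1.90 CPM in anti-CD40 mice with and without ABX, against 0.794 ± 0.397 and 0.847 ± 0.157 CPM in control mice with and without ABX.

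Antibiotics did not change either CD8 gene past the test. In anti-CD40 mice the log2 fold change for ABX against no ABX was 0.15 for Cd8a (95% interval -0.64 to 0.95, edgeR adjusted p = 0.823) and 0.03 for Cd8b1 (-0.78 to 0.84, adjusted p = 0.966), against 15.9% of all tested genes called. In control mice it was -2.12 for Cd8a (-4.06 to -0.17, adjusted p = 0.208) and -0.27 for Cd8b1 (-1.83 to 1.29, adjusted p = 0.894), against 6.68% called. The control value of Cd8a rests on 2 counts with ABX against 12 without, 9 of those 12 in mice 9 and 10. Over exons 1 to 3 the controls had 22 counts with ABX and 27 without, a ratio of 0.924 (95% counting interval 0.502 to 1.69). The difference between the anti-CD40 effect with and without antibiotics, tested as an interaction, was 2.27 ± 1.02 for Cd8a (SE, edgeR adjusted p = 0.170) and 0.30 ± 0.85 for Cd8b1 (adjusted p = 0.866), with 7.55% of all genes called. At these counts the control intervals span changes of several fold. The shares called changed with the fit. In controls, a model that also held the plate column called 77 genes for ABX in edgeR. For ABX in anti-CD40 mice and for the interaction, that model took anti-CD40 mice without ABX from mouse 16 alone. Mice 17 to 20 were alone in column 5, so its counts of called genes there are not given. Leaving out 1 mouse gave 225 to 364 genes in anti-CD40 mice, 89 to 137 in controls and 88 to 194 for the interaction, against 350, 147 and 166 with all mice. They fell by over 1.5 times without mouse 14 or 18 in anti-CD40 mice, without mouse 4 or 10 in controls, and without mouse 4, 5, 10, 14 or 18 for the interaction.

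The libraries' plate columns moved with the groups. All control mice with ABX were in column 3, all anti-CD40 mice with ABX in column 4, and anti-CD40 mice 17 to 20 in column 5, so with antibiotics the treatment and the column cannot be told apart. Within column 4, Cd8a had 14 counts in anti-CD40 mouse 16 and 5 and 4 in control mice 9 and 10, none of them given ABX. Cd8b1 had 23 counts in mouse 16, against 3 and 0 in mice 9 and 10, and the exon 1 to 3 interval of Cd8a had 60, against 6 and 6. With plate column as a term in the fit, mice 17 to 20, alone in column 5, drop out of the comparison without ABX. That comparison then rests on mouse 16 against mice 9 and 10, so only its size is given. With ABX, the column shift is taken from control mice 9 and 10 against control mice 6 to 8, none given ABX. The fit therefore cannot separate treatment from column among mice given ABX. In it, the log2 fold change of Cd8b1 was 3.77 with ABX (edgeR adjusted p = 0.0205) and 3.90 without. Cd8a, read through its 72 bases, was at 2.73 with ABX (adjusted p = 0.157), which no longer passed, and at 1.67 without. Cd8a was also read through all features with at least 90% of their exon bases in it, 1364 exon bases in all. In the same kind of fit that gave 2.92 with ABX (adjusted p = 0.000850) and 2.86 without.

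Ighm, which all 20 libraries held at 84 counts or more, had 152, 192, 220, 177 and 199 counts in anti-CD40 mice 11 to 15 with ABX, against 94, 107, 111, 103 and 110 in control mice 1 to 5 with ABX. It had 133, 240, 152, 142 and 113 counts in anti-CD40 mice 16 to 20 without ABX, against 139, 177, 124, 187 and 84 in control mice 6 to 10 without ABX. With antibiotics all 5 anti-CD40 mice lay above all 5 controls, which held for 19.3% of all tested genes. Without antibiotics the groups overlapped over most of their range. The level was 30.5 ± 3.21 CPM in anti-CD40 mice and 18.7 ± 2.24 CPM in control mice with ABX, and 23.5 ± 4.79 CPM in anti-CD40 mice and 22.1 ± 6.06 CPM in control mice without (SD, n = 5 each). The log2 fold change was 0.71 ± 0.16 with ABX (SE, edgeR adjusted p = 0.000680), a ratio of summed counts of 1.64, and the exact two-sided permutation p was 0.00794. It was 0.09 ± 0.16 without ABX (adjusted p = 0.649), with a 95% interval of -0.24 to 0.42 and an exact permutation p of 0.706. With plate column as a term the change with ABX was 0.83 (adjusted p = 0.0362), its column shift taken from control mice 6 to 10 alone.

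The effect of anti-CD40 on Ighm was not shown to differ between the antibiotic states. The interaction was 0.62 ± 0.23 (SE, unadjusted p = 0.0117), and its adjusted p of 0.0958 in edgeR missed the threshold. Without anti-CD40 mouse 17, the highest of its group, it was 0.74 (adjusted p = 0.0369), and without control mouse 10, the lowest of its group, 0.75 (adjusted p = 0.0367). Among anti-CD40 mice, ABX against no ABX gave 0.37 ± 0.16 (unadjusted p = 0.0260, edgeR adjusted p = 0.113), and mice 12 and 13 with ABX lay above all 5 mice without. Without mouse 17 this difference was 0.50 (adjusted p = 0.0335). Among controls the log2 fold change for ABX was -0.24 ± 0.16 (adjusted p = 0.449), with a 95% interval of -0.58 to 0.09. Within plate column 4, Ighm was 21.9 CPM in anti-CD40 mouse 16 and 27.8 and 14.2 CPM in control mice 9 and 10, all without ABX. It ranged from 27.3 to 34.6 CPM in the 5 anti-CD40 mice with ABX in that column. Within column 3 it averaged 18.7 CPM in the 5 control mice with ABX and 22.9 CPM in the 3 without.

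**Figure D3:**
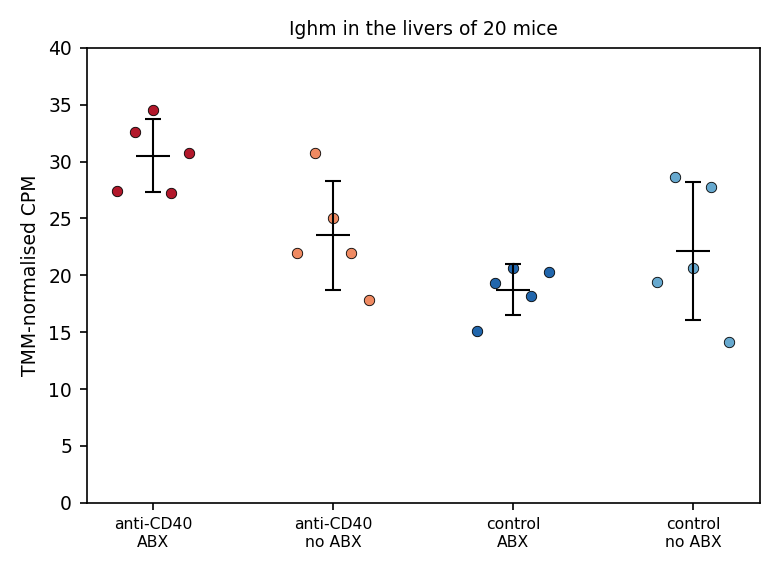
TMM-normalised CPM of Ighm in each of the 20 mice by group; bars give the mean ± SD (n = 5 per group). Anti-CD40 mice with ABX averaged 30.5 CPM against 18.7 CPM in control mice with ABX and do not overlap them, while the groups without ABX overlap (23.5 CPM with anti-CD40, 22.1 CPM in controls).

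**Figure D4:**
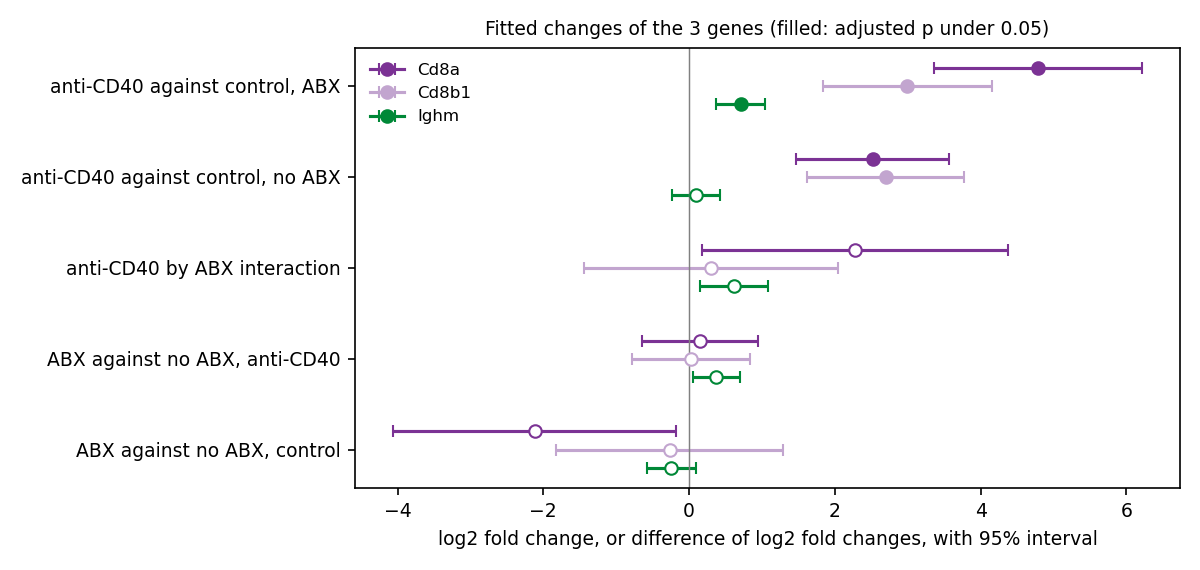
Fitted log2 fold changes of Cd8a, Cd8b1 and Ighm with 95% intervals in 4 comparisons, and the interaction as a difference of log2 fold changes; filled points have an edgeR adjusted p under 0.05. The 5 filled points are both CD8 genes in both anti-CD40 comparisons and Ighm in the anti-CD40 comparison with ABX.

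Other genes of T cells were measured sparsely, because the counted intervals miss most mouse exons. Of 33 genes of the T cell receptor and its co-receptors, 6 were measured and 3 tested, the CD8 chains among them. All 3 tested genes passed the filter on low counts through anti-CD40 libraries alone and were called higher in both anti-CD40 comparisons, so their count adds nothing to the values of the members. The untested members had few counts, and they were not all higher. Bcl11b, a transcription factor of the T lineage, had 23 counts in anti-CD40 mice and 21 in controls with ABX, and 19 in anti-CD40 mice and 5 in controls without. Cd5, a receptor that dampens T cell signalling, had 2 and 2 counts with ABX, and 7 in anti-CD40 mice and 1 in controls without, while Themis, which acts in T cell selection, had at most 3 counts in any group and none in controls. The Cd3 chains, Cd4 and the receptor constant genes were not measured, so CD8 T cells were not set against other T cells.

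Among 22 genes of cytotoxic cells, 2 were measured. Serpinb9, an inhibitor of granzyme B that shields cells from it, rose by 2.81 ± 0.13 on the log2 scale with ABX (SE, edgeR adjusted p = 8e-15) and by 3.32 ± 0.13 without (adjusted p = 6.12e-16). Gzmk, the granule protease granzyme K, fell short of the filter, with 42 counts over the 5 anti-CD40 mice and 1 over the controls with ABX, and 34 over anti-CD40 mice and 3 over controls without. Of 25 genes of T cell activation, 4 were measured. Il2ra, the inducible chain of the interleukin 2 receptor, rose by 4.01 ± 0.61 with ABX (adjusted p = 5.31e-06) and 3.17 ± 0.58 without (adjusted p = 5.46e-05), on 80 counts against 4 and 61 against 6. Il2ra reached the filter minimum in 8 anti-CD40 libraries and no control library. Il2rb, the receptor chain that interleukins 2 and 15 share and that NK cells also carry, rose by 2.19 ± 0.16 with ABX and 2.57 ± 0.16 without. Il15ra, which presents interleukin 15, rose by 0.78 ± 0.10 with ABX and 0.66 ± 0.10 without. Entpd1, which encodes the ectonucleotidase CD39, rose by 0.63 ± 0.22 without ABX (adjusted p = 0.0185) and was at -0.17 ± 0.23 with ABX (adjusted p = 0.556). It was lower with ABX among anti-CD40 mice, at -0.89 ± 0.22 (adjusted p = 0.0103). The chemokine Ccl3, the 1 measured gene of 20 for T cell migration, rose by 4.88 ± 1.06 with ABX (adjusted p = 0.000591) and 6.33 ± 0.85 without (adjusted p = 2.01e-06), and 158 of its 295 counts in anti-CD40 mice without ABX came from 1 mouse. Ccl3 reached the filter minimum in 10 anti-CD40 libraries and no control library. In the wider assignment by 90% of exon bases, added after the data were seen, Lag3, an inhibitory receptor of activated T cells, had 5.06 ± 0.963 CPM in anti-CD40 mice and 4.33 ± 1.72 CPM in controls with ABX (SD, n = 5 each), a log2 fold change of 0.23 ± 0.24 (SE, adjusted p = 0.447). Without ABX it had 5.67 ± 0.578 CPM in anti-CD40 mice and 3.38 ± 0.904 CPM in controls (0.74 ± 0.24, adjusted p = 0.0110).

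The ligands of CD8 were partly readable. Of 26 genes of MHC class I presentation, 3 were assigned. The chaperone gene Canx rose by 0.21 ± 0.08 on the log2 scale with ABX (SE, edgeR adjusted p = 0.0227) and 0.34 ± 0.08 without (adjusted p = 0.000396). H2-Q10, a secreted class I molecule of hepatocytes, fell by 0.40 without ABX (adjusted p = 0.000429) and was at -0.20 with ABX (adjusted p = 0.0586). Read through features with at least 90% of their exon bases in 1 gene, a wider assignment added after the data were seen, the classical class I gene H2-D1 reached 10243 ± 597 CPM in anti-CD40 mice and 1952 ± 244 CPM in controls with ABX, and 9729 ± 793 CPM in anti-CD40 mice and 1968 ± 303 CPM in controls without (SD, n = 5 each). Class I genes resemble each other closely, so how their fragments were split is uncertain. Nlrc5, the transactivator of class I genes, rose in that fit by 2.09 ± 0.09 with ABX (adjusted p = 4.25e-15) and 2.14 ± 0.09 without (adjusted p = 2.46e-15).

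In the B lineage, the genes beside Ighm did not move as 1 group. Of 27 B cell genes, 3 were measured. Cd79b, a signalling chain of the B cell receptor, had 3.55 ± 1.39 CPM in anti-CD40 mice and 2.28 ± 0.538 CPM in controls with ABX, and 2.39 ± 0.842 CPM in anti-CD40 mice and 2.28 ± 0.652 CPM in controls without (SD, n = 5 each). Its log2 fold changes of 0.64 ± 0.30 with ABX (SE, edgeR adjusted p = 0.0774) and 0.08 ± 0.30 without (adjusted p = 0.847) did not pass the test. Btk, a kinase of the B cell receptor that myeloid cells also express, rose by 1.14 ± 0.34 with ABX (adjusted p = 0.00675) and 1.71 ± 0.31 without (adjusted p = 3.87e-05), and reached the filter minimum in 10 anti-CD40 libraries and 1 control library. Untested Bank1, a B cell scaffold protein, had 17 counts in anti-CD40 mice and 27 in controls with ABX, and 4 in anti-CD40 mice and 38 in controls without. Of 13 plasma cell genes, 3 were measured, Ighm among them. Xbp1, a transcription factor of secretory cells that hepatocytes also express, rose by 0.51 ± 0.13 with ABX (adjusted p = 0.00217) and 0.33 ± 0.13 without (adjusted p = 0.0322), and was lower with ABX among controls, at -0.45 ± 0.13 (adjusted p = 0.0392). Irf4, which B cells need to become plasma cells, stayed below the filter with 19 counts in anti-CD40 mice and 2 in controls with ABX, and 29 in anti-CD40 mice and 16 in controls without. Ighm was the 1 measured gene of 12 immunoglobulin constant genes, and none of 6 genes for IgM binding or transport was measured. In the wider assignment Ighg2b, a constant gene of class-switched antibody, had 39 counts in anti-CD40 mice and 18 in controls with ABX (0.96 ± 0.52, adjusted p = 0.124) and 75 in anti-CD40 mice and 23 in controls without (1.62 ± 0.46, adjusted p = 0.00375).

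**Figure D5:**
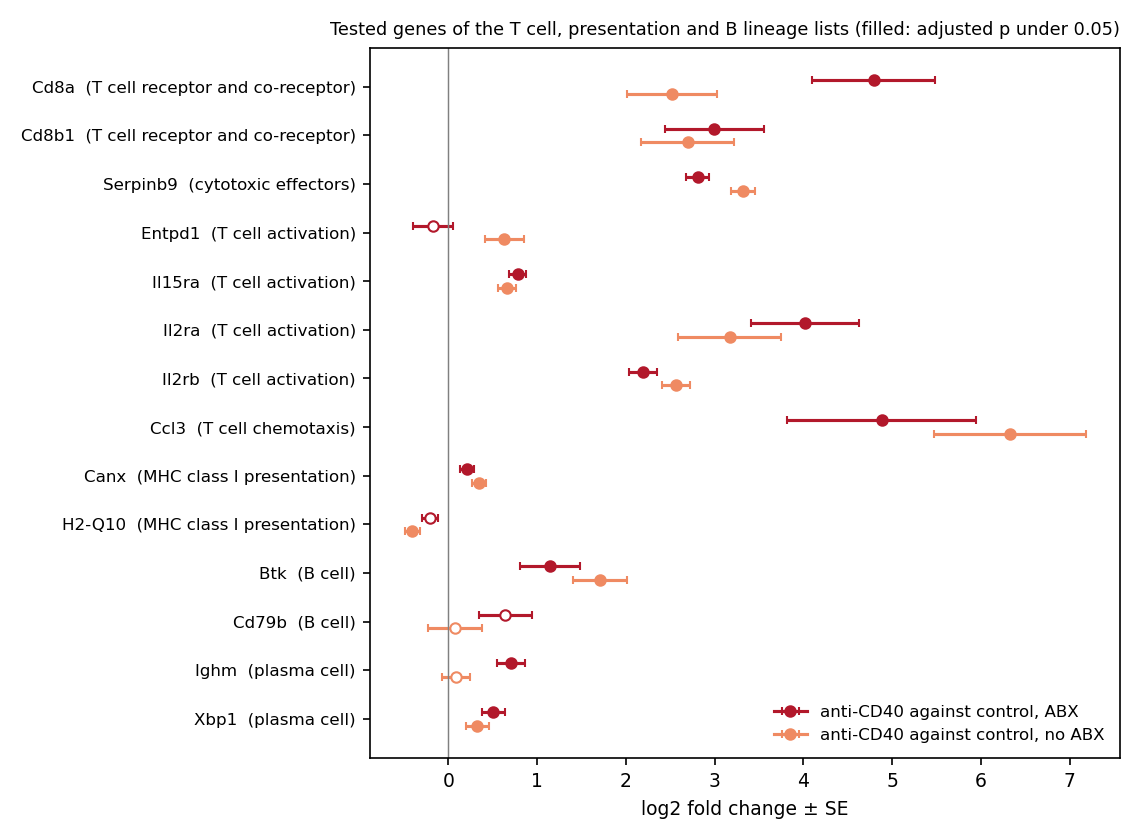
Log2 fold changes ± SE of tested genes of the T cell, class I presentation and B lineage lists in the anti-CD40 comparisons with ABX (dark) and without (light); filled points have an edgeR adjusted p under 0.05. Cd79b is open in both comparisons (0.64 and 0.08), Ighm, Entpd1 and H2-Q10 are filled in 1 of the 2, and all other points are filled.

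Several markers of other cells changed in the same comparisons, and their part in the CD8 and Ighm values was not tested. Without the CD8 chains, the 4 other measured T cell genes summed to 1.39 to 3.40 CPM in anti-CD40 mice and 0.554 to 2.41 CPM in controls with ABX, and to 1.73 to 2.97 CPM in anti-CD40 mice and 0.162 to 1.34 CPM in controls without. The sums overlapped between anti-CD40 and control mice with ABX and did not without. The 3 measured B cell genes summed to 4.71 to 9.01 CPM in anti-CD40 mice and 3.53 to 5.83 CPM in controls with ABX, and to 4.89 to 9.73 CPM in anti-CD40 mice and 2.97 to 6.66 CPM in controls without. Behind the sums without ABX, Btk averaged 4.88 CPM in anti-CD40 mice and 1.49 CPM in controls. Cd79b averaged 2.39 and 2.28 CPM there, and Bank1 0.125 and 1.19 CPM. Of 16 dendritic cell genes 4 were measured, and the 1 tested, H2-Aa of MHC class II, rose by 2.64 ± 0.19 on the log2 scale with ABX and 2.68 ± 0.19 without (SE). The others were scarce: Flt3 had at most 5 counts in any anti-CD40 mouse, Siglech and Zbtb46 had 0 counts in controls without ABX, and the summed level was 331 to 464 CPM in anti-CD40 mice and 36.4 to 87.6 CPM in controls with ABX, and 293 to 399 CPM in anti-CD40 mice and 34.7 to 68.5 CPM in controls without, nearly all of it H2-Aa. All 5 measured genes of 16 for macrophages and Kupffer cells were called with ABX, 3 higher and 2 lower, where 51.5% of all genes were called. Without ABX 2 were higher and 2 lower, where 60.6% were called. Ms4a7 reached the filter minimum in 10 anti-CD40 libraries and no control library, and Mrc1 in no anti-CD40 library and 10 control libraries. The 5 genes summed to 307 to 915 CPM in anti-CD40 mice and 129 to 197 CPM in controls with ABX. Without ABX they summed to 283 to 1103 CPM in anti-CD40 mice and 127 to 353 CPM in controls. Lyz2 made up most of this, at a mean of 547 and 612 CPM in anti-CD40 mice with and without ABX, against 113 and 123 CPM in controls. The 2 genes called lower in both comparisons were Adgre1 and Mrc1. Among 14 hepatocyte genes 7 were measured, and 6 fell and 1 rose in each anti-CD40 comparison, where 24.9% of all genes fell with ABX and 28.8% without, with summed levels of 105903 to 138878 CPM in anti-CD40 mice and 235662 to 314788 CPM in controls with ABX, and 72161 to 104233 CPM in anti-CD40 mice and 224412 to 245262 CPM in controls without. Of 14 NK cell genes only Il2rb was measured, and of 12 neutrophil genes none.

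The genes whose pattern over the 20 libraries lay nearest to each member were found by the root mean square (RMS) difference of mean-centred log2 CPM among 2199 other tested genes. For Cd8a these were Ptpn2, a tyrosine phosphatase of cytokine signalling, at 0.554, the death receptor Fas at 0.561, Lgals3bp, a secreted galectin-binding protein, at 0.588 and Fam177a at 0.592, against a median of 1.33 over all genes. For Cd8b1 they were Gm15556 at 0.418, the calcium sensor Hpca at 0.516, the forkhead factor Foxp4 at 0.525 and the scaffold protein Nedd9 at 0.533, against a median of 1.23. Neither CD8 chain was among the 4 nearest of the other. Cd8a itself lay 1.30 RMS from its own mean and Cd8b1 1.20 RMS from its own. All the genes listed for both chains were called higher in both anti-CD40 comparisons, as were 26.6% of all tested genes with ABX and 31.8% without. They were picked for likeness to the chains in these same libraries, so those calls add nothing to the values of the members. At counts this low, the ranking does not show whether the chains vary together. For Ighm the nearest were Tor1aip1 of the nuclear membrane at 0.256, Tox4 at 0.258, the co-chaperone Stip1 at 0.269 and the chromatin reader Brd2 at 0.269, against a median of 0.538. Ighm itself lay 0.354 RMS from its own mean.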

How the data were processed

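RNA from snap-frozen liver portions was extracted with trizol and sequenced, per the labels' protocols. The submitters' processing notes name Trimmomatic 0.38, HISAT2 2.1.0 and the build mm10. The deposited values are raw counts per feature, which the authors made with featureCounts 1.5.0-p2 in paired mode, with no strand option, per the file headers. Those headers name a human GRCh38 annotation (Ensembl release 93), so mouse alignments were counted at human exon coordinates and the human identifiers were ignored. Antisense fragments cannot be told apart.

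Intervals were read as mm10 and intersected with GENCODE M21 exons (bedtools 2.31.1). Of 58395 features, 7463 were each assigned to 1 gene, and features over several genes held 52.3% of counts. The fit in edgeR 4.0.16 (R 4.3.3) took all 20 libraries, a mean per group, TMM scaling of library totals, its default filter (10 counts at the median depth) and a two-sided quasi-likelihood F-test. Standard errors are the log2 fold change over the root of F, an approximation. DESeq2 1.42.0, other scalings, filters and assignments, plate column as a term and leaving out each mouse were alternatives. Exact permutation tests (12 in all) enumerated 252 arrangements of the mice. CPM for a level is TMM-normalised. Counting intervals and floors cover counting error only, since no molecular identifiers are recorded.

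The members and the gene lists were chosen with earlier results of these data known. The text names the 3 members, the measured genes of the T cell, presentation, B cell, plasma cell and immunoglobulin lists, and the 4 genes nearest each member. Some listed genes are not reported here. Genes of other cell types, and those of the wider assignment, were named after their values were seen. No 2 libraries of a group agreed within sampling noise. All are from individual mice, per the series' design.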

Additional observations from a re-analysis of the deposited data

How the results depend on the processing

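No paired analysis was possible because no mouse number is shared between groups. In fits of only the 2 groups compared, Cd8b1 with ABX and Cd8a without ABX did not pass the filter and have no value. In each alternative that tested them, both anti-CD40 calls of Cd8b1 and the call of Ighm with ABX held, and those of Cd8a held except with plate column as a term, where the log2 fold change was 2.73 with ABX and 1.67 without, neither called. That term left 690 called genes for anti-CD40 with ABX, 735 without, 5 for ABX in anti-CD40 mice and 77 in controls. For the interaction it left 0 in edgeR (282 at an unadjusted p under 0.05) and 20 in DESeq2. It turned Cd8b1 to -0.13 in the interaction and to -0.66 for ABX in anti-CD40 mice, where scaling by library totals gave -0.0033. Without mice 14, 15, 19 and 20, left out after seeing the data for their low counts of the endothelial gene Pecam1, that value was -0.23, with 170 genes called, and 79 for the interaction. With the wider assignment and plate column together, Cd8a for ABX in anti-CD40 mice was -0.067, again through mouse 16 alone. None of these results was called in the main fit, and the reversed values from fits without plate column were not called either.

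Leaving out each mouse in turn moved no anti-CD40 call of the CD8 genes. Ighm without ABX ranged from -0.038 to 0.19, its interaction from 0.52 to 0.75, and for ABX in anti-CD40 mice from 0.31 to 0.50. Cd8b1 ranged from -0.075 to 0.28 for ABX in anti-CD40 mice, from -0.85 to 0.065 in controls and from -0.030 to 0.88 in the interaction, and Cd8a from -0.044 to 0.50 for ABX in anti-CD40 mice. Called genes ranged from 88 to 194 for the interaction, 225 to 364 for ABX in anti-CD40 mice and 89 to 137 for ABX in controls. They fell by over 1.5 times without mouse 4, 5, 10, 14 or 18 for the interaction, without mouse 14 or 18 for ABX in anti-CD40 mice, and without mouse 4 or 10 for ABX in controls. Library totals in place of TMM moved the median log2 fold change of all genes to 0.37 with ABX and 0.27 without, and Ighm without ABX to 0.35 (adjusted p = 0.0976). The cause of these shifts was not tested. Over the assigned intervals, control libraries held 0 to 5 counts of a CD8 gene.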
